A study of Saccharomyces cerevisiae with 4 samples.

Results

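Thioredoxins and thioredoxin reductases are the protein thiol reducing system of Saccharomyces cerevisiae, and the genes described here are the 5 that encode them in this yeast: TRX1 (YLR043C), TRX2 (YGR209C), TRX3 (YCR083W), TRR1 (YDR353W) and TRR2 (YHR106W). They were taken by gene name from the probe set annotation, among 5449 S. cerevisiae genes on the array. Each of the 5 had a single probe set, so no choice between probe sets was needed. All 5 were above background on all 4 arrays, as were 5309 of the 5449 genes. Background was the 95th percentile of probe sets that the annotation names outside the S. cerevisiae gene table.

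Thioredoxins are small proteins whose pair of active-site cysteines reduces disulfides in other proteins. The oxidised thioredoxin is returned to its dithiol form by thioredoxin reductase, a flavoprotein that takes its electrons from NADPH. In yeast TRX1 and TRX2 encode the cytosolic thioredoxins and TRR1 the cytosolic reductase, while TRX3 and TRR2 encode a separate mitochondrial pair. Clients of the cytosolic system include peroxiredoxins, methionine sulfoxide reductases, PAPS reductase of the sulfate pathway and ribonucleotide reductase. TRX2 and TRR1 are known targets of the transcription factors Yap1 and Skn7 in yeast exposed to oxidants.

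The study exposed the haploid strain W1588-4c to allyl alcohol. All cultures shared its genotype: mating type a (MATa) with RAD5+ and the alleles ade2-1, can1-100, trp1-1, ura3-1, leu2-3, 112 and his3-11,15. Yeast alcohol dehydrogenases turn this unsaturated alcohol into acrolein, an aldehyde that reacts with thiols. Cultures grew at 30 °C in synthetic complete medium with 2% glucose until the optical density was about 1. In one group (2 arrays, here U1 and U2 for replicates 1 and 2) no agent was added, and the other (2 arrays, A1 and A2) received 0.4 mM allyl alcohol for 3 h. The series describes the arrays of a group as independent experiments, and no time is given for the untreated cultures, so growth time and treatment cannot be told apart.

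The labels went against the similarity of the arrays. Across the 5449 genes, which are not independent replicates, Pearson's r was 0.757 for U1 with U2 and 0.740 for A1 with A2, but 0.996 for U1 with A2 and 0.991 for U2 with A1. U1, U2, A1 and A2 therefore stand for arrays as they are labelled, every direction is that of the labels, and arrays were not regrouped. Whether the labels of 2 arrays were exchanged was not tested; if they were, the group differences given here would not be those of the treatment. Of the mating type a markers, 7 of 7 were above background on all arrays, and the log2 of their summed signal was 15.41 on U1, 13.62 on U2, 13.78 on A1 and 15.37 on A2. The 4 of 4 mating type alpha markers were also above background on all arrays, with 11.12, 12.52, 12.57 and 11.04 in that order. Of all 5449 genes, 5309 were above background on all 4 arrays, so these counts are not particular to either list. MF(ALPHA)2 stood as little as 0.77 above background on the log2 scale. The markers of a list did not all go one way. Among the a markers, STE2, STE6, BAR1, MFA1, MFA2 and AGA2 were lower on U2 than on U1 and on A1 than on A2, with log2 differences of -0.58 and -0.37 for AGA2, while ASG7 was at 9.44, 9.19, 9.45 and 9.23 on U1, U2, A1 and A2. Among the alpha markers, SAG1 was at 9.74, 11.995, 12.05 and 9.57. MF(ALPHA)1 and MF(ALPHA)2 went the same way, with log2 differences of 0.79 and 0.57 (U2 minus U1) and of 0.82 each (A1 minus A2). Only STE3 went the other way, with -0.42 (U2 minus U1) and -0.45 (A1 minus A2). The part of these marker differences in the results below was not tested. In a bulk culture, fewer cells with a transcript and less of it per cell cannot be told apart.

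TRX1 encodes one of the cytosolic thioredoxins. Its log2 signal was 13.42 on U1, 13.30 on U2, 13.09 on A1 and 13.41 on A2. The lowest and the second highest value carried the allyl alcohol label, so the groups overlapped. All 4 values lay within 0.34 of each other on the log2 scale, the narrowest spread of the 5 genes.

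TRX2, the paralogue of TRX1, had a log2 signal of 13.68 on U1, 14.38 on U2, 14.32 on A1 and 13.57 on A2. Each label thus held a high and a low array, and the groups overlapped. The high arrays were U2 and A1, and the 4 values spanned 0.81. The deposited values ended at 14.75, and compression of bright signals such as that of TRX2 was not tested.

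TRR1, the cytosolic reductase that serves both of these thioredoxins, had 13.24 on U1, 13.97 on U2, 13.91 on A1 and 13.29 on A2. The same arrays were high as for TRX2, and the 4 values spanned 0.72.

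TRX3, the mitochondrial thioredoxin, had 11.76 on U1, 13.01 on U2, 13.21 on A1 and 11.70 on A2. Its values spanned 1.51, the widest range of the 5 genes. TRR2, the mitochondrial reductase, had 11.36 on U1, 12.64 on U2, 12.71 on A1 and 11.26 on A2, a span of 1.46. Both mitochondrial genes were high on U2 and A1, with overlapping groups. Levels are not set against each other between genes, because each probe set has its own response.

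**Figure D1:**
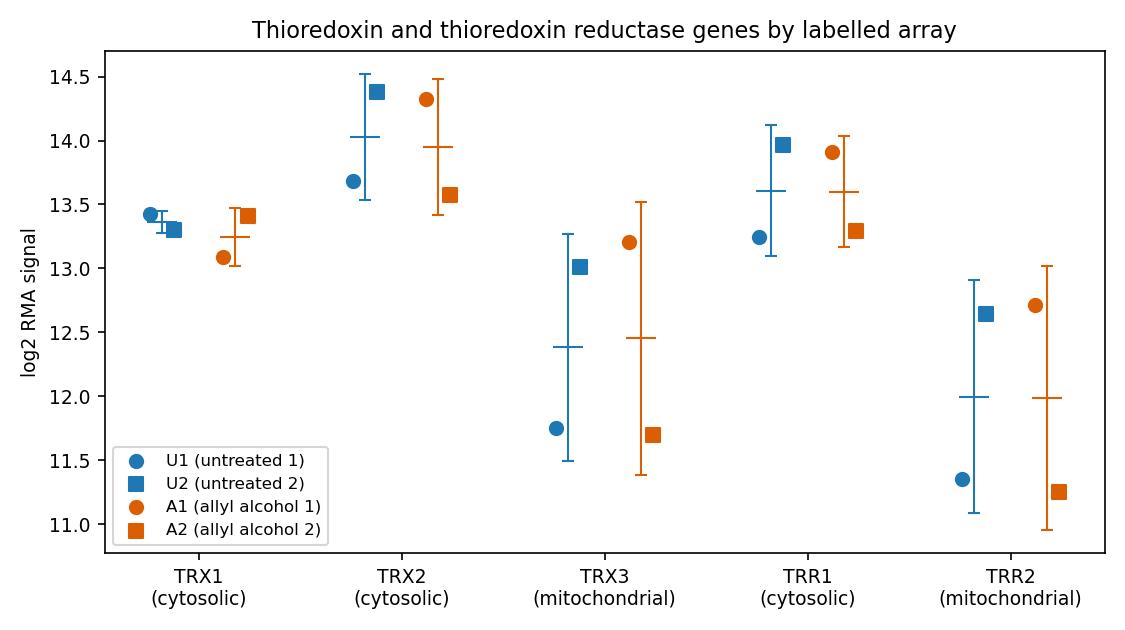
Log2 RMA signal (y axis) of the 5 genes (x axis, with compartment) on each of the 4 arrays, coloured by label and shaped by replicate number; short horizontal lines are group means and vertical bars ± 1 SD (n = 2). For TRX2, TRX3, TRR1 and TRR2 each label holds a high and a low array, and TRX1 spans 0.34.

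The comparison the labels define asks which transcripts differ after 3 h with allyl alcohol. By these labels none of the 5 genes passed the test in limma with Benjamini-Hochberg adjustment over all 5449 genes, and the adjusted p was 1 for each. The background share was 0% of genes called: limma called 0 of the 5449, and 0 had an unadjusted p under 0.05. Evenly spread p-values would put a share of about 0.05 of the genes under that mark, but the smallest p in limma was 0.218. Limma takes its error from the spread between arrays of one label, which was large here. These p-values and the intervals below therefore cannot be read as calibrated. With 2 arrays a group, the smallest p that an exact two-sided permutation test allows is 0.333. None of the 5 genes had groups that did not overlap, against 5.23% of all genes.

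Among the cytosolic genes, TRX1 had group means of 13.36 ± 0.087 (untreated) and 13.25 ± 0.23 (allyl alcohol; SD, n = 2). The log2 difference, allyl alcohol minus untreated, was -0.12 with a limma 95% interval from -1.08 to 0.85. TRX2 had 14.03 ± 0.49 and 13.95 ± 0.53 (SD, n = 2), a difference of -0.082 with an interval from -1.48 to 1.32. TRR1 had 13.61 ± 0.51 and 13.60 ± 0.43 (SD, n = 2), a difference of -0.0067 with an interval from -1.35 to 1.33. The sign of the TRR1 difference is not a result, since it was 0.0093 with each array centred on its median and 0.0020 after quantile normalization anew.

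The mitochondrial genes had differences as small and intervals wider still. TRX3 had 12.38 ± 0.89 (untreated) and 12.45 ± 1.07 (allyl alcohol; SD, n = 2), and the difference was 0.070 on the log2 scale with an interval from -2.19 to 2.33. TRR2 had 11.999 ± 0.91 and 11.98 ± 1.03 (SD, n = 2), a difference of -0.014 with an interval from -2.25 to 2.22, and its sign turned to 0.0018 with arrays centred on their median. Changes of 2-fold in either direction lay inside the interval of every gene but TRX1, where the upper end stopped short of 2-fold. The small group differences therefore do not show that these transcripts were level across the arrays.

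Single arrays decided the direction. For TRX2, TRX3, TRR1 and TRR2 the log2 differences without A1 were -0.46, -0.69, -0.31 and -0.74, and without A2 they were 0.29, 0.83, 0.30 and 0.72. In the same gene order they were -0.43, -0.56, -0.37 and -0.66 without U1, and 0.27, 0.70, 0.36 and 0.63 without U2. For TRX1 the value was 0.044 without A1 and -0.28 without A2, and it was -0.054 without U1 and -0.18 without U2. With 1 array left in a label, limma takes that array to vary like the others, and the lowest adjusted p of the 5 genes in these fits was 0.999685.

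For all 5 genes the arrays of one label stood further apart than the group means did, though for TRX1 by little (0.123 between U1 and U2). These differences compare single arrays, carry no test, and their order of subtraction was chosen after values were seen: U2 minus U1, and A1 minus A2. Over all genes, 20.4% were at least 2-fold higher in the first of these differences and 21.5% in the second, and 18.6% in both. In the mitochondrial pair, 2 of 2 genes were at least 2-fold higher in both. In the cytosolic genes, 0 of 3 were at least 2-fold apart in both in either direction, against 34.4% of all genes.

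TRX3 was 2.39-fold higher on U2 than on U1, and 2.85-fold higher on A1 than on A2. TRR2, its reductase, was 2.44-fold and 2.75-fold higher in the same order. In signed size the TRX3 differences exceeded those of 84.7% and 87.2% of all genes, and the TRR2 differences those of 85.1% and 86.4%. The mitochondrial thioredoxin and its reductase differed from each other by 0.03 and -0.05 on the log2 scale (TRR2 minus TRX3) in these differences, so their profiles over the 4 arrays nearly coincided.

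TRX2 was 1.62-fold higher on U2 than on U1 and 1.68-fold higher on A1 than on A2. TRR1 was 1.65-fold and 1.53-fold higher in the same order. These sizes lay near the middle of all genes: without regard to sign, 47.1% of genes had smaller differences than TRX2 in each label, and 48.4% and 39.3% had smaller ones than TRR1. The known Yap1 and Skn7 targets of the set thus had smaller differences inside the labels than the mitochondrial pair, as single-array values with no test. Their signals were also nearer the highest deposited value than those of the mitochondrial pair. Compression of bright signals was not tested.

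TRX1 went the other way. It was 1.09-fold lower on U2 than on U1, and 1.25-fold lower on A1 than on A2. The paralogues TRX2 and TRX1 thus differed by 0.82 and 1.07 on the log2 scale in these differences, TRX2 minus TRX1. Probes of paralogues can share signal, and how far this holds for TRX1 and TRX2 was not tested.

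Arrays with different replicate numbers and different labels were close for all 5 genes. A2 minus U1 gave log2 differences of -0.02 for TRX1, -0.11 for TRX2, -0.06 for TRX3, 0.05 for TRR1 and -0.10 for TRR2. A1 minus U2 gave -0.21, -0.06, 0.20, -0.06 and 0.07 in the same gene order. None of the 5 genes reached 2-fold in either, against 0.275% and 0.147% of all genes. For the mitochondrial genes, arrays with the same replicate number lay about as far apart as arrays of one label: A1 minus U1 was 1.45 for TRX3 and 1.36 for TRR2, and A2 minus U2 was -1.31 and -1.39. Those comparisons share arrays with the ones above and are not separate evidence.

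**Figure D2:**
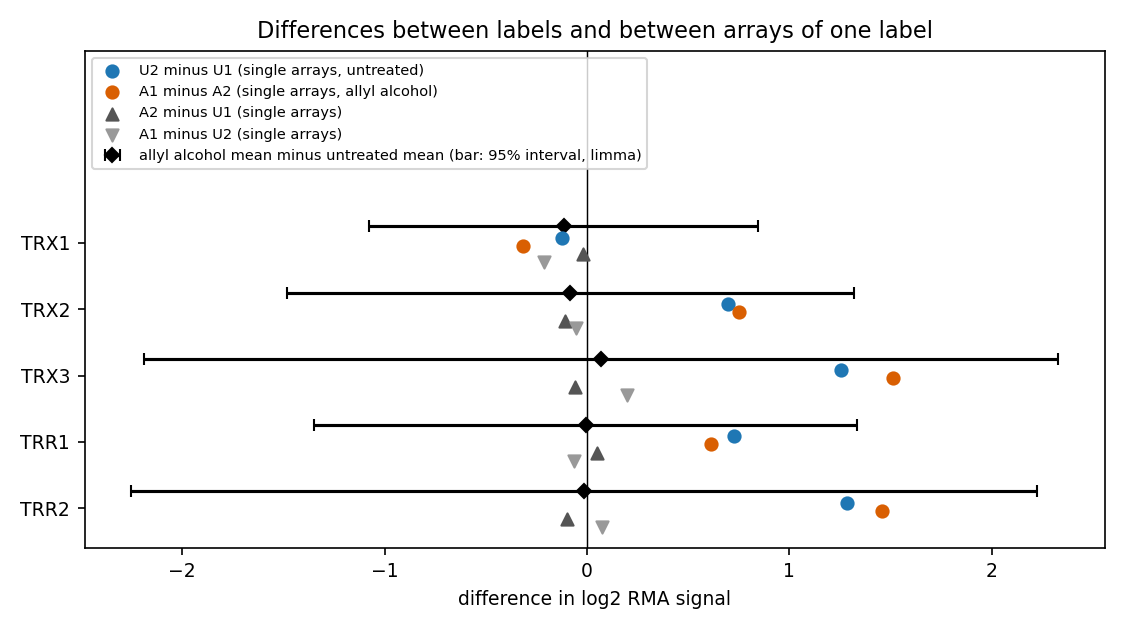
Differences in log2 RMA signal (x axis) for the 5 genes (y axis): diamonds are the group difference with its limma 95% interval, and the other symbols are differences between single arrays named in the legend. All intervals include 0, and the differences inside a label reach 1.51 for TRX3 where the group difference is 0.070.

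To set the compartments side by side, each gene was centred on its mean over the 4 arrays, and the mean of TRX3 and TRR2 was subtracted from the mean of TRX1, TRX2 and TRR1. This cytosolic minus mitochondrial value was 0.47 on U1, -0.37 on U2, -0.62 on A1 and 0.52 on A2. It was positive on U1 and A2 and negative on the others, so each label held one of either sign. Centring makes the 4 values cancel, so both signs had to occur, but it does not fix on which arrays. Relative to their own means, the mitochondrial genes were therefore above the cytosolic ones on 2 arrays and below them on 2.

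The group means of the contrast were 0.048 ± 0.59 (untreated) and -0.048 ± 0.80 (allyl alcohol; SD, n = 2). They are equal in size and opposite in sign because of the centring. Their difference of -0.096 was smaller than either SD. No test was run on this score, and the part of signal compression in it was not tested. The difference was 0.47 without A1, -0.66 without A2, 0.32 without U1 and -0.51 without U2. Both cytosolic genes other than TRX1 lay between TRX1 and the mitochondrial pair on each array.

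**Figure D3:**
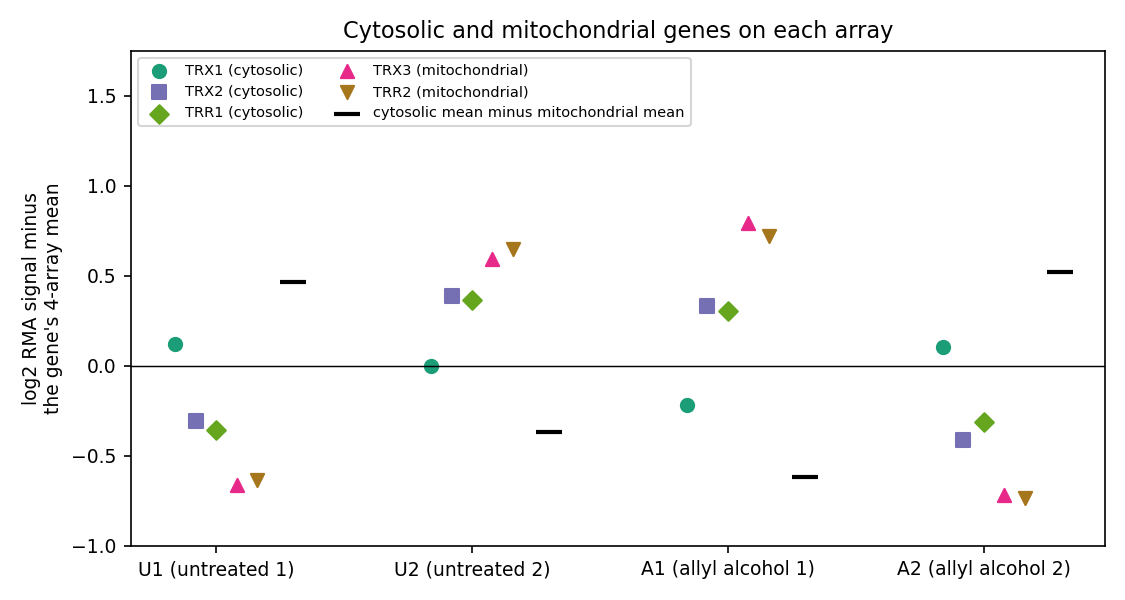
Log2 RMA signal of each gene minus its own 4-array mean (y axis) on the 4 arrays (x axis), with the mean of the 3 cytosolic genes minus that of the 2 mitochondrial genes as a black line. On each array TRX3 and TRR2 are farthest from 0 in the direction opposite to the black line, and TRX2 and TRR1 lie between them and TRX1.

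The partners of the system were 22 genes, all measured. In limma 0 of 22 were called (0% of all genes), and the groups did not overlap for 2 of 22, YBP1 and RNR2, against 5.23% of all genes. The median log2 difference, allyl alcohol minus untreated, was -0.06 over the partners and -0.02 over all genes. The partner values ran from -0.42 for TSA2 to 0.21 for RNR3, with standard errors of 1.58 and 1.35. YBP1, a Yap1-binding protein, had 10.20 and 10.10 on the untreated arrays and 9.57 and 10.06 on the allyl alcohol arrays. This gave a log2 difference of -0.33 (standard error 0.36, adjusted p = 1 in limma), and the difference lay mainly on A1. RNR2, a small subunit of ribonucleotide reductase, had values from 13.41 to 13.45 and a difference of 0.02.

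Inside the labels, in the order of subtraction given above, 10 of 22 partners were at least 2-fold higher in both labels and 1 was at least 2-fold lower, against 18.6% and 15.8% of all genes. The peroxiredoxins were split. TSA2, the cytosolic peroxiredoxin that is a paralogue of TSA1, was at 10.21 and 13.13 on U1 and U2 and at 12.77 and 9.73 on A1 and A2. Its paralogue TSA1, the main cytosolic peroxiredoxin, stayed between 14.26 and 14.49 on the 4 arrays. PRX1, the mitochondrial peroxiredoxin, was at 12.74, 13.90, 13.77 and 12.44 in the array order used for TSA2. Its differences inside the labels, 1.16 and 1.33, were close to those of TRX3 and TRR2. AHP1, another thioredoxin peroxidase, lay between 14.19 and 14.55, and DOT5, the nuclear one, between 11.01 and 11.33. TSA1 and AHP1 were nearly flat, but near the highest deposited value, 14.75. Compression of their signals was not tested. The pattern of PRX1 was not particular to it, since GPX1, a thiol peroxidase, differed by 1.33 and 1.60 inside the labels, against 1.25 and 1.51 for TRX3.

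SRX1, the sulfiredoxin that repairs over-oxidised peroxiredoxin, had the widest range of all the partners, with 7.37 and 13.84 on the untreated arrays and 13.77 and 7.42 on the allyl alcohol arrays. GPX2, a thioredoxin-dependent thiol peroxidase, was at 9.49, 13.71, 13.45 and 9.41 in the same order. HYR1, the hydrogen peroxide sensor that activates Yap1, spanned 0.044. YAP1 itself differed by 1.42 and 1.80 inside the labels, whereas SKN7 differed by -0.37 and -0.75. The differences of TRX2 and TRR1 were smaller than those of YAP1, SRX1 and GPX2, and larger in size than those of HYR1, TSA1 and AHP1.

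The other clients were also divided. The methionine sulfoxide reductases went opposite ways: MXR1, the cytosolic enzyme, differed by 2.57 and 2.59 on the log2 scale, and MXR2, the mitochondrial one, by -2.44 and -2.36. MXR2 was therefore low on the arrays on which TRX3, TRR2 and PRX1 were high. MET16, the PAPS reductase that takes electrons from thioredoxin, differed by 3.33 and 3.34. Among ribonucleotide reductase genes RNR3, the damage-inducible large subunit, differed by 2.43 and 2.62, and RNR1, the main large subunit, by -0.65 and -0.79.

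The parallel glutathione system had differences in both directions, as the 5 genes did, and none above those of TRX3 and TRR2. GLR1, glutathione reductase, differed by 1.11 and 1.09 inside the labels, more than TRR1 with 0.72 and 0.61. The dithiol glutaredoxin gene GRX2 differed by 0.66 and 0.75, close to TRX2 with 0.70 and 0.75. GRX1, its paralogue, differed by -0.42 and -0.46, the direction of TRX1. TRX2 and GRX2 were thus higher, and their paralogues TRX1 and GRX1 lower, on U2 than on U1 and on A1 than on A2. For TRX1 the first difference was only -0.12. The paralogues TSA1 and TSA2 were both higher, TSA1 by 0.15 and 0.17 and TSA2 by 2.92 and 3.05.

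**Figure D4:**
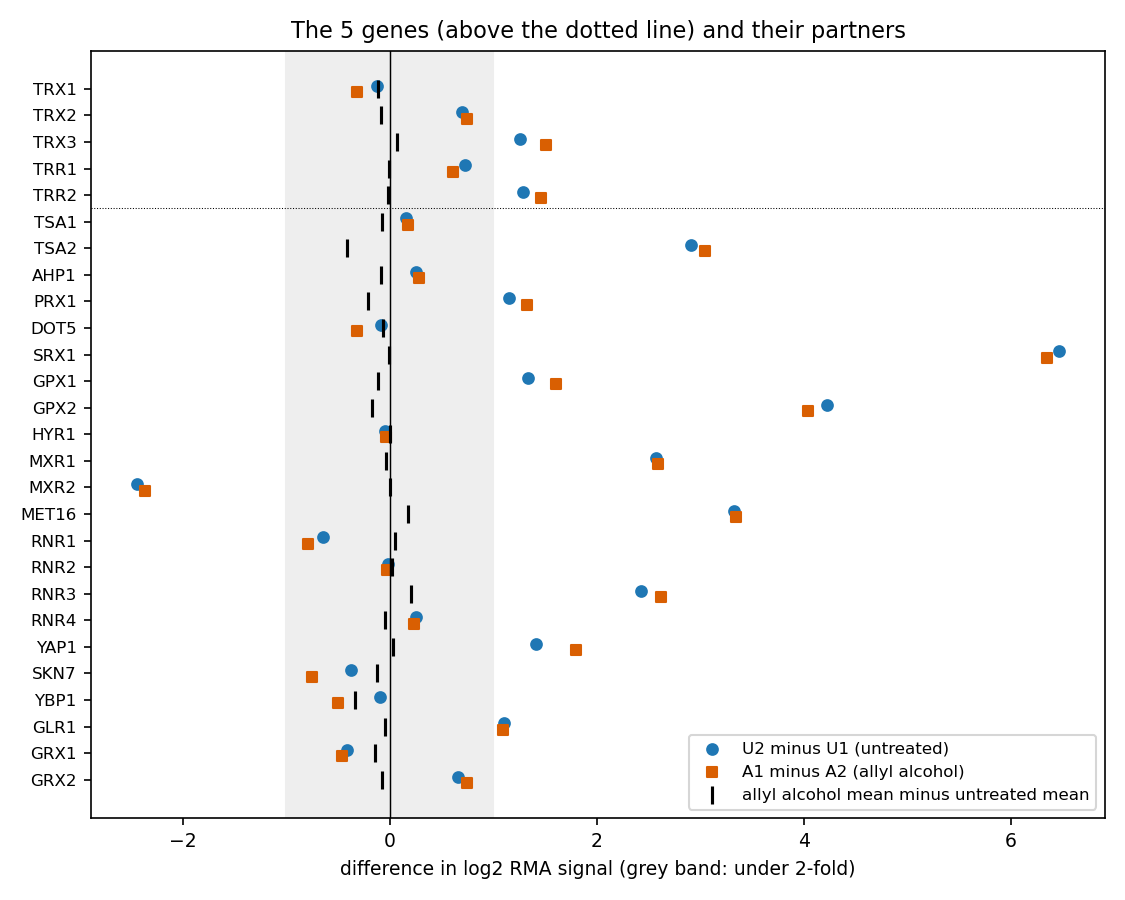
Differences in log2 RMA signal (x axis) for the 5 genes and their 22 partners (y axis): circles are U2 minus U1, squares are A1 minus A2, and vertical ticks are allyl alcohol mean minus untreated mean. The ticks lie between -0.42 and 0.21, while the circles and squares reach 6.46 for SRX1.

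The genes with the most similar profiles were found as the smallest Euclidean distances between centred log2 profiles over the 4 arrays, among genes above background on all arrays. For TRX2 the 5 nearest were SIS1, GSP2, YJR149W, GRX2 and ENT1, at distances from 0.011 to 0.031. SIS1 is an Hsp40 co-chaperone and GRX2 is among the partners above. For TRR1 they were HEK2, PRP40, RPL15B (whose probes may share signal with its paralogue), RPN10 and DSK2, at 0.014 to 0.033, where RPN10 is a proteasome ubiquitin receptor and DSK2 a ubiquitin shuttle protein. For TRX1 they were CRT10, CHC1, HPC2, SWT21 and RAD9, at 0.017 to 0.044. The mitochondrial genes had SNU23, AFG3, SIP5, YDR338C and PSO2 nearest to TRX3, at 0.032 to 0.062, and AHK1, CET1, YMR253C, DOA4 and PET100 nearest to TRR2, at 0.011 to 0.065. AFG3 is a mitochondrial inner membrane protease subunit and PET100 an assembly factor of cytochrome c oxidase. With only 4 arrays such closeness is common: 1257 genes lay within 0.5 of TRX2, 1311 of TRR1, 1627 of TRX1, 686 of TRX3 and 719 of TRR2.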

How the data were processed

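RNA from 4 yeast cultures was measured on Affymetrix arrays. The deposited values are log2 signals, 1 for each of 10928 probe sets and array, made by the authors with RMA and Affymetrix Expression Console, per the submitters' processing notes; the sources used here give neither their versions nor their settings. Their range, from 2.777 to 14.75, is that of log2 values. RMA equalises arrays, so a broad change in mRNA is partly removed.

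In the platform annotation 7244 probe sets had 1 gene, 1 had several and 3683 had none; 5498 matched a gene of RefSeq assembly R64, giving 5449 genes by the brightest probe set. The 1746 named outside that table set the background. Groups followed the labels. Limma 3.58.1 (R 4.3.3, lmFit and eBayes, no block, two-sided) was fitted to all genes, with Benjamini-Hochberg adjustment at 0.05. The code was also run on simulated data with known changes. Noise there was independent between arrays and of equal size for all genes, unlike that of these arrays. That run therefore does not show which changes the fit could find here. The number of arrays limits the precision. Scanner files and scan dates were not used here. Arrays with the same replicate number deviated from their group means in opposite ways (r = -0.973 across genes), so the numbers did not pair them.

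The 5 genes, the partner list and the marker lists were chosen with earlier results of these data known. Genes were named by rule: the 5 genes, the 22 partners, and the 5 nearest profiles of each gene. Mating type a markers were STE2, STE6, BAR1, MFA1, MFA2, AGA2 and ASG7, and alpha markers STE3, MF(ALPHA)1, MF(ALPHA)2 and SAG1. Alternatives changed the variance model, scaling, probe set rule, filter, probe sets tested, block and arrays used.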

Additional observations from a re-analysis of the deposited data

How the results depend on the processing

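Limma called 0 genes under each of the 11 alternatives, with 0 at an unadjusted p under 0.05 except 8 probe sets when all probe sets other than the 213 controls were tested. It called 0 also with a crossed block (U1 with A2 and U2 with A1), chosen after seeing the data, where an unadjusted p under 0.05 was reached by 188 genes and the smallest adjusted p was 0.939. A block on the replicate number also gave 0 calls, and no call for the 5 genes changed. With all 4 arrays, the alternatives kept the direction of each of the 5 genes except TRR1, at 0.0093 with arrays centred on their median and 0.0020 after quantile normalization anew, and TRR2, at 0.0018 with arrays centred; these values are close to 0. Leaving out 1 array moved the log2 difference from -0.28 to 0.044 for TRX1, -0.46 to 0.29 for TRX2, -0.69 to 0.83 for TRX3, -0.37 to 0.36 for TRR1 and -0.74 to 0.72 for TRR2, and the compartment contrast from -0.66 to 0.47. The differences inside the labels kept their direction under both other scalings. Using the mean of a gene's probe sets changed none of the 5 genes' values, since each has 1 probe set. Signal over background was not limiting for the 5 genes, whose lowest value stood 5.62 above background on the log2 scale.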
